A study of Mus musculus with 12 samples.

Results

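The effect of Ezh2 loss in naive CD8 T cells was examined across 20962 genes by setting the 3 naive knockout arrays against the 3 naive wild-type arrays, which are 6 of the 12 arrays of the study. The members are all arrays whose labels give freshly isolated cells, and the knockout or wild-type state was taken from the same labels. All mice were male C57BL/6 animals aged 4 weeks. Mice 1, 2 and 3 were wild type at Ezh2, and the labels do not say whether they carried floxed alleles or Cre. Mice 4, 5 and 6 had both Ezh2 alleles floxed and carried a Cre recombinase under a CD4 promoter, which is active in developing T cells, so deletion starts before the CD8 cells mature and is not limited to the naive stage. CD8 cells were pulled from spleen and lymph nodes with magnetic beads carrying an anti-CD8 antibody, at a purity above 93%, and no sort on a naive surface marker is described. The other 6 arrays hold cells of the same mice after 3 days on anti-CD3 with a costimulatory antibody, and they are used here only to ask whether an effect seen in naive cells was also present after activation.

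Ezh2 is the catalytic subunit of Polycomb repressive complex 2 (PRC2), which places methyl groups on lysine 27 of histone H3. The trimethylated form of this mark is found at silent genes, many of which encode developmental and lineage regulators. In CD8 T cells PRC2 is known for holding back genes of effector and memory cells in the naive state and for silencing progenitor genes during effector differentiation. Ezh1 is a related enzyme that can take the place of Ezh2 in resting cells.

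Expression is given as the deposited log2 value, so a difference of 1 is 2-fold. The array medians lay between 0.905 and 0.976 and the highest value was 10.595, so values near 1 are close to the floor and a change of a gene that is dim in 1 group is understated. A gene passes, and is then said to rise or fall, when limma gives an adjusted p under 0.05 over all 20962 genes, and changes are knockout minus wild type ± SE with 3 mice per group. Correlations between naive arrays, taken across genes, were 0.9867 to 0.9924 within a genotype and 0.984 to 0.9873 between genotypes. The first principal component of the 6 arrays (36.9% of the variance) separated the genotypes, and on the second (22.6%) knockout mouse 4 stood apart at -20.9, with knockout mice 5 and 6 at 7.9 and 9.7. Results that turn on mouse 4 are therefore given with and without it.

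Ezh2 itself read 2.31, 2.16 and 2.42 in naive wild-type mice 1, 2 and 3 and 1.95, 2.14 and 2.18 in naive knockout mice 4, 5 and 6. The naive groups overlapped, and the difference of -0.20 ± 0.20 did not pass (adjusted p = 0.845). The sources used here do not place the probe set inside or outside the deleted region, so the naive arrays hold no check of the deletion by RNA level. In activated cells of the same mice Ezh2 differed by -2.02 ± 0.20 (adjusted p = 4.09e-05). The neighbourhood of the gene was also compared: of the 50 measured genes on either side of Ezh2, 0 of 100 passed in limma, the median change was -0.01, and 10 had an unadjusted p under 0.05, against 9.49% of all genes.

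The labelled cell type was checked on its markers. Cd8a, which encodes the CD8 alpha chain, read 7.36 to 7.49 in wild-type and 7.49 to 7.81 in knockout mice, and Cd3e, a chain of the T-cell receptor complex, lay between 7.12 and 7.36 on all 6 arrays. Cd4 read 1.73 to 2.14 and 1.49 to 1.87. Genes of the naive state were high in both genotypes: the chemokine receptor gene Ccr7 at 7.07 to 7.41, the interleukin-7 receptor gene Il7r at 6.42 to 6.68 and the transcription factor gene Tcf7 at 6.93 to 7.22. Changes of these genes ran from -0.26 ± 0.12 for Cd4 to 0.22 ± 0.09 for Cd8a, and 0 of these 6 passed, the smallest adjusted p being 0.453. Cd44, a marker of antigen-experienced cells, read 2.34, 2.48 and 2.23 in wild-type mice and 2.69, 3.36 and 2.62 in knockout mice. Its groups did not overlap, but the change of 0.54 ± 0.15 did not pass (adjusted p = 0.145). This is the brightest of the 4 Cd44 probe sets; with every probe set fitted on its own 2 of the 4 passed upward, and the mean of the 4 rose by 0.60 (adjusted p = 0.0061).

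In naive cells 228 of 20962 genes passed (1.09%), of which 130 were higher in knockout cells (0.62%) and 98 lower (0.468%). The changes were mostly moderate, with a median size of 0.75 among the risers and 0.70 among the fallers, and 61 genes differed at least 2-fold (0.291%), 33 of them upward and 28 downward. Genes that rose had a median wild-type level of 2.36 and those that fell one of 3.02, against 1.11 over all genes. The 3 knockout and 3 wild-type values were separate for each of the 228, as they were for 15% of all genes. Without knockout mouse 4 the total was 279, with 177 higher and 102 lower, and 178 of the 228 were among them, 101 upward and 77 downward. The total was 139 without wild-type mouse 1 and 148 without wild-type mouse 3. The number of risers was 68 without wild-type mouse 1, 68 without wild-type mouse 3 and 75 without knockout mouse 5, and the number of fallers was 64 without wild-type mouse 2. Through all 6 omissions 54 risers and 49 fallers kept their call.

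**Figure D1:**
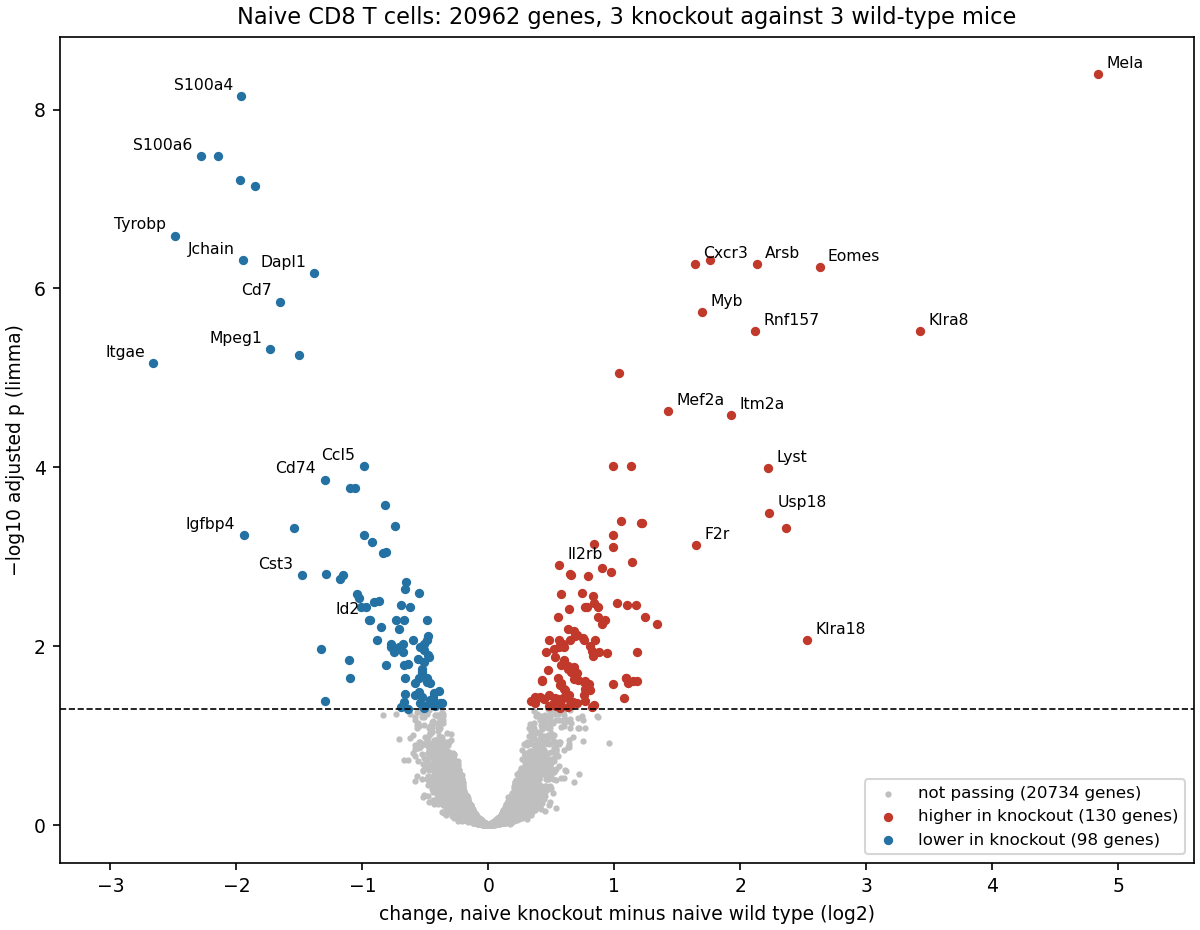
Change in naive cells (horizontal axis, log2, knockout minus wild type, 3 mice each) against the negative log10 of the limma adjusted p (vertical axis) for 20962 genes, with the dashed line at 0.05. The 130 genes that rose are red and the 98 that fell are blue; Mela stands alone at the upper right with a change of 4.84.

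The largest rise was that of Mela, a gene of endogenous retroviral origin that was first described as a melanoma antigen. It read 1.13, 1.22 and 1.14 in wild-type mice and 6.62, 5.76 and 5.62 in knockout mice, and the highest value was that of mouse 4. The change of 4.84 ± 0.19 (adjusted p = 4.04e-09) is understated, as the wild-type values lie near the floor. Eomes, the gene of a T-box factor that memory CD8 cells depend on, read 1.98, 2.17 and 2.18 against 4.19, 5.10 and 4.93. Mid1, which encodes a microtubule-associated ubiquitin ligase, went from 2.05, 2.04 and 1.82 to 5.27, 4.06 and 3.66 (2.36 ± 0.29, adjusted p = 0.000481). The authors mark the Mid1 probe set as matching the antisense strand, so the strand behind this rise cannot be told apart. It was the 1 of 3 Mid1 probe sets that passed, and with antisense-marked probe sets left out Mid1 no longer passed (0.73, adjusted p = 0.366).

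Lyst, which encodes the lysosomal trafficking regulator, read 1.42, 1.60 and 1.41 in wild-type and 3.11, 4.04 and 3.94 in knockout mice (2.22 ± 0.23, adjusted p = 0.000102). Arsb, which encodes the lysosomal enzyme arylsulfatase B, read 1.37, 1.05 and 1.33 against 3.25, 3.43 and 3.47 (2.13 ± 0.14, adjusted p = 5.36e-07). For both genes each knockout mouse lay more than 1.5 above each wild-type mouse. The ubiquitin ligase gene Rnf157 rose by 2.12 ± 0.16 (adjusted p = 3e-06) and Itm2a, a membrane protein gene of thymocytes and T cells, by 1.93 ± 0.18 (adjusted p = 2.61e-05). With every probe set fitted on its own, 1 of the 4 Rnf157 probe sets passed and both of Itm2a did.

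Among regulators, Myb, which encodes a transcription factor of progenitor cells, showed some of the tightest values, at 3.12, 3.02 and 2.94 in wild-type mice against 4.72, 4.76 and 4.70 in knockout mice (1.70 ± 0.13, adjusted p = 1.85e-06). Mef2a, which encodes a MADS-box factor, read 2.74, 2.52 and 2.79 against 4.03, 4.14 and 4.18 (1.43 ± 0.13, adjusted p = 2.35e-05). Cxcr3, the receptor gene for interferon-induced chemokines, was as even between mice, at 3.62, 3.54 and 3.54 against 5.22, 5.19 and 5.24. For these 3 genes mouse 4 lay with the other knockout mice. F2r, the thrombin receptor gene, rose by 1.65 ± 0.21 (adjusted p = 0.000734), and the sialyltransferase gene St3gal6 by 1.21 ± 0.15 (adjusted p = 0.000422). Only 1 of the 5 St3gal6 probe sets passed when each was fitted on its own. Ybx3, which encodes a cold-shock domain protein, rose by 1.34 ± 0.22 (adjusted p = 0.00556), with wild-type mouse 2 at 3.55 well above wild-type mice 1 and 3 at 2.37 and 2.55.

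**Figure D2:**
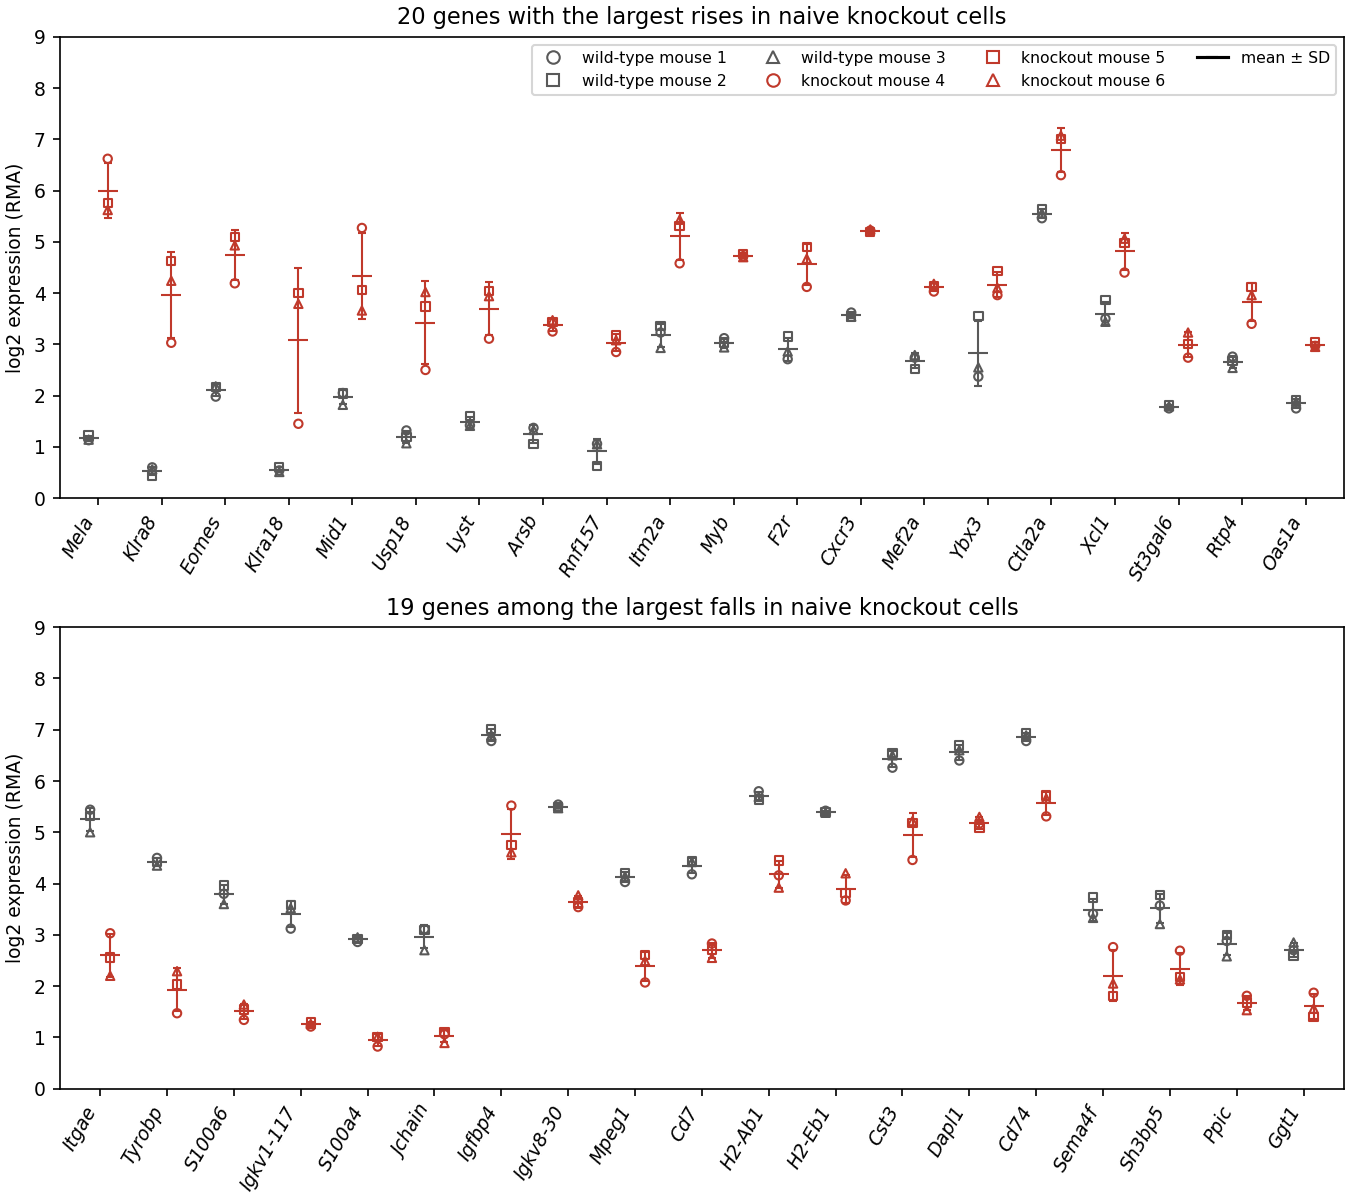
Log2 expression (vertical axis) of the 20 genes with the largest rise (upper panel) and 19 of the 20 with the largest fall (lower panel). They were taken among passing genes whose call held without each naive array, with unnamed transcripts and pseudogenes left out. Each mouse has 1 open symbol, with mean ± SD. Wild-type mice are grey and knockout mice red; knockout mouse 4 (circle) is the lowest red point for Klra8, Klra18 and Usp18 and the highest for Mela and Mid1.

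The largest fall was that of Itgae, which encodes the integrin chain CD103, at 5.44, 5.32 and 5.00 in wild-type and 3.03, 2.56 and 2.20 in knockout mice. Tyrobp, which encodes the adaptor DAP12 of NK and myeloid receptors, went from 4.50, 4.42 and 4.35 to 1.47, 2.03 and 2.29. The lowest wild-type value of each gene was far above the highest knockout value. Cd7, a surface receptor gene of T and NK cells, read 4.18, 4.44 and 4.42 against 2.83, 2.71 and 2.55 (-1.65 ± 0.12, adjusted p = 1.4e-06). Mpeg1, which encodes perforin-2, a pore-forming protein of phagocytes, read 4.03, 4.21 and 4.14 against 2.07, 2.61 and 2.49 (-1.73 ± 0.14, adjusted p = 4.72e-06). In both of these genes the knockout mice were below every wild-type mouse by more than 1.

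Further leading falls were those of the semaphorin gene Sema4f (-1.29 ± 0.18, adjusted p = 0.00154), the mitochondrial signalling gene Sh3bp5 (-1.18 ± 0.17, adjusted p = 0.00179), the cyclophilin gene Ppic (-1.15 ± 0.16, adjusted p = 0.00158) and Ggt1, which encodes a glutathione-degrading enzyme (-1.10 ± 0.12, adjusted p = 0.000168). The protease inhibitor gene Cst3, encoding cystatin C, is strongly expressed in dendritic cells and fell from 6.26, 6.55 and 6.50 to 4.46, 5.18 and 5.22 (-1.48 ± 0.21, adjusted p = 0.00159). Others, among them H2-Ab1, H2-Eb1, Cd74 and Jchain, are genes of MHC class II presentation and antibodies. They are described with the markers of other cells, and Cd74 also read 3.09 to 3.77 on the activated arrays. Because the arrays measure RNA pooled from all cells of a sample, fewer cells of a type and less RNA per cell cannot be told apart for any gene named here.

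Of 52 transcription factors of T-cell fate 5 rose and 1 fell, against 0.62% and 0.468% of all genes, with a median change of 0.00 against -0.01 over all genes. Besides Eomes and Myb, the risers were Nr4a2, a nuclear receptor gene induced by T-cell receptor signals (4.56, 4.20 and 4.48 against 4.89, 5.11 and 5.12; 0.63 ± 0.10, adjusted p = 0.00638), Runx2 (0.82 ± 0.15, adjusted p = 0.0112) and Tcf12 (0.60 ± 0.11, adjusted p = 0.0101). The faller was Id2, which encodes an inhibitor of E proteins that supports effector cells, at 4.96, 5.15 and 4.85 against 4.09, 4.26 and 3.78 (-0.95 ± 0.15, adjusted p = 0.0051). Tbx21, a related T-box gene, read 1.43, 1.27 and 1.08 against 1.20, 1.18 and 1.17 and did not pass (-0.08 ± 0.09, adjusted p = 0.875). The call of Runx2 was lost without wild-type mouse 1 or 2 (adjusted p up to 0.0637), and that of Tcf12 without wild-type mouse 1 or 3 or knockout mouse 5 (up to 0.0675). With every probe set fitted on its own, 1 of 3 Runx2, 2 of 6 Nr4a2 and 3 of 5 Tcf12 probe sets passed upward. Without knockout mouse 4 the list held 6 risers and 2 fallers, and without wild-type mouse 1 it held 3 and 1.

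Killer lectin-like receptors, inhibitory and activating receptors of NK cells that a minority of CD8 cells also carry, changed in 3 of 25 measured members, against 1.09% of all genes. Klra8, which encodes Ly49H, read 0.60, 0.44 and 0.56 in wild-type mice and 3.03, 4.63 and 4.24 in knockout mice, a step from the floor of the scale. Klra18 read 0.54, 0.61 and 0.51 against 1.45, 4.00 and 3.79, with mouse 4 far below the other knockout mice; its change of 2.53 ± 0.44 passed (adjusted p = 0.00859) but did not when only the 6 naive arrays were fitted or when limma's intensity trend and robust variances were used. Klrk1, which encodes the activating receptor NKG2D, fell by 0.55 ± 0.12 on the log2 scale (adjusted p = 0.0337), a call lost without wild-type mouse 1 or 3 or knockout mouse 5 (up to 0.145), which left 0 fallers, and also lost with only the 6 naive arrays. The other 22 did not pass and the list's median change was -0.00. The Ly49 genes are near-identical copies and the authors note possible cross-hybridization for Klra8 and Klra18, so it is uncertain which copies gave the signal.

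Of 19 adaptors and activating receptors of the NK type 3 rose and 3 fell, against 0.62% and 0.468% of all genes, and the median change was -0.03. The risers were Sh2d1a, which encodes the SLAM adaptor SAP (2.73, 2.68 and 2.56 against 3.32, 3.82 and 3.81; 0.99 ± 0.12, adjusted p = 0.000567), Sh2d2a (0.63 ± 0.13, adjusted p = 0.0375) and the class I-restricted T-cell molecule gene Crtam (0.62 ± 0.12, adjusted p = 0.0161). The fallers were Tyrobp, Cd7 and Fcer1g, which encodes the Fc receptor gamma chain (-0.64 ± 0.12, adjusted p = 0.0156). Fcer1g lost its call without wild-type mouse 3 or knockout mouse 4 (up to 0.0904), and Crtam without wild-type mouse 1 or knockout mouse 4 or 6 (up to 0.0945). Sh2d2a lost it without any naive array other than that of knockout mouse 6, and without the activated arrays of wild-type mouse 1, 2 or 3 or knockout mouse 4 (up to 0.154). Sh2d2a and Crtam also did not pass with only the 6 naive arrays. The list held 1 riser and 2 fallers without knockout mouse 4 and 1 and 3 without wild-type mouse 1.

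Among 30 cytotoxic granule genes and their inhibitors 1 rose and 1 fell, against 0.62% and 0.468% of all genes, with a median of 0.00. Ctla2a, which encodes a cysteine protease inhibitor of activated lymphocytes, rose from 5.46, 5.63 and 5.56 to 6.30, 7.0 and 7.07 (1.24 ± 0.20, adjusted p = 0.00464). Gzmb, the granzyme B gene, was low throughout and fell from 1.90, 1.96 and 2.25 to 1.55, 1.06 and 1.37 (-0.71 ± 0.12, adjusted p = 0.00638). Gzma and the perforin gene Prf1 changed by 0.72 and 0.32 and did not pass (adjusted p = 0.266 and 0.65). Without knockout mouse 4 the number of risers was 5, and without the activated array of knockout mouse 6 it was 2.

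Calcium-binding S100 proteins, annexins, galectins and related genes of effector and memory cells fell in 6 of 30 members and rose in 0, against 0.468% and 0.62% of all genes, with a median change of -0.16 against -0.01. S100a6 read 3.80, 3.96 and 3.60 in wild-type mice against 1.34, 1.54 and 1.64 in knockout mice, and S100a4 read 2.86, 2.92 and 2.95 against 0.82, 1.01 and 1.01, so that S100a4 lay near the floor in all knockout mice. The galectin genes Lgals1 and Lgals3 went from 6.90, 7.06 and 7.12 to 5.70, 6.32 and 6.11 (-0.99 ± 0.12, adjusted p = 0.000567) and from 2.15, 2.42 and 2.54 to 1.67, 1.51 and 1.42 (-0.84 ± 0.11, adjusted p = 0.000905). S100a11 (-0.51 ± 0.09, adjusted p = 0.011) and the annexin gene Anxa5 (-0.53 ± 0.11, adjusted p = 0.0366) also fell, but were not among the 4 members that passed without each naive array. Without knockout mouse 4 there were 2 risers and 5 fallers, and without wild-type mouse 2 there were 1 and 5. Markers of phagocytes, which also express S100 and galectin genes, were lower on the same arrays, as given below, and their part in these falls was not tested.

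Of 30 integrins and adhesion molecules 5 fell and 1 rose, against 0.468% and 0.62% of all genes, with a median of -0.07. Besides Itgae, the gene of integrin alpha 4, Itga4, fell from 5.78, 5.91 and 6.06 to 5.15, 4.92 and 5.08 (-0.87 ± 0.13, adjusted p = 0.00312). Cd24a, which encodes a glycoprotein of immature lymphocytes and B cells, fell from 2.46, 2.90 and 2.14 to 0.83, 1.66 and 1.71 (-1.10 ± 0.22, adjusted p = 0.0227), Cd81, a tetraspanin gene, by 0.67 ± 0.15 on the log2 scale (adjusted p = 0.0421), and Pecam1 by 0.53 ± 0.10 (adjusted p = 0.0193). Itgal, which encodes the alpha chain of LFA-1, rose by 0.43 ± 0.09 (adjusted p = 0.0243). These last 4 calls each depended on single arrays: Cd24a lost its call without wild-type mouse 1 or 2 (up to 0.114), Pecam1 without wild-type mouse 1 or knockout mouse 4 or 5 (up to 0.104), and Itgal without any naive array but that of knockout mouse 5 (up to 0.0954). Cd81 lost it without any naive array and without the activated arrays of wild-type mouse 1 or 3 (up to 0.175). Fitting only the 6 naive arrays also ended the calls of Cd24a, Pecam1 and Itgal. Only Itgae and Itga4 were called in each omission; the number of fallers was 2 without wild-type mouse 1, 3 without wild-type mouse 2 or knockout mouse 5, 4 without knockout mouse 4 or 6 and 5 without wild-type mouse 3, and the riser remained without knockout mouse 5 alone.

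Of 17 chemokine genes 1 rose and 1 fell, against 0.62% and 0.468% of all genes. Xcl1, which encodes the dendritic-cell attractant lymphotactin, rose from 3.50, 3.86 and 3.44 to 4.40, 4.98 and 5.06 (1.22 ± 0.15, adjusted p = 0.000415), and Ccl5, which encodes RANTES and marks memory CD8 cells, fell from 7.03, 7.11 and 7.20 to 6.27, 6.04 and 6.05 (-0.99 ± 0.10, adjusted p = 9.68e-05). These were the 2 of 17 that passed (median -0.05); there were 2 risers without knockout mouse 4 or without the activated array of knockout mouse 6. Of 30 chemokine and migration receptors (median -0.05) 3 rose and 1 fell, against 0.62% and 0.468% of all genes. Cxcr6 fell from 2.53, 2.51 and 2.49 to 1.78, 1.87 and 1.68 (-0.74 ± 0.09, adjusted p = 0.000454). Gpr183, an oxysterol receptor gene, rose by 0.94 ± 0.17 (adjusted p = 0.0119), a call lost without wild-type mouse 1 or 3 or knockout mouse 5 or 6 (up to 0.0767), with only the 6 naive arrays, or with the mean of its probe sets.

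Antiviral interferon-stimulated genes, which are switched on by interferon through the STAT and IRF factors, were higher in 16 of 68 members and lower in 0 (0.62% and 0.468% of all genes), 62 of the 68 changes were positive, and the median change was 0.32. The mean level of the 68 genes was 3.06, 3.12 and 2.97 in wild-type mice and 3.23, 3.58 and 3.56 in knockout mice. Mouse 4 was thus nearer to the wild type than the other knockout mice, and it was the lowest of the knockout mice for 51 of the 68 genes and for 13 of the 16 that passed. For those 16 the median difference from the wild-type mean was 0.53 in mouse 4, 1.15 in mouse 5 and 0.93 in mouse 6. Leaving out mouse 4 raised the number of risers to 24. It was 7 without wild-type mouse 3, 7 without knockout mouse 5, 8 without wild-type mouse 1, and 9 without wild-type mouse 2 or knockout mouse 6, so the count depends on every one of the naive arrays.

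The 6 members that passed without each naive array were Usp18, Rtp4, Oas1a, Ddx60, Oasl2 and Rsad2. Usp18, which encodes a protease that removes ISG15 and restrains interferon receptor signalling, read 1.32, 1.19 and 1.07 against 2.5, 3.74 and 4.02. Oas1a, one of the oligoadenylate synthetases that activate RNase L, read 1.75, 1.92 and 1.88 against 2.97, 3.05 and 2.95, and its values were alike in the 3 knockout mice (1.14 ± 0.15, adjusted p = 0.00115). Ddx60, an antiviral helicase gene, read 2.11, 2.23 and 1.90 against 2.72, 3.22 and 3.37 (1.02 ± 0.16, adjusted p = 0.00325). Oasl2 and Rsad2, the gene of the antiviral enzyme viperin, rose by 0.99 ± 0.13 (adjusted p = 0.000774) and 0.84 ± 0.13 (adjusted p = 0.00325). With every probe set fitted on its own, 1 of 3 Rsad2, 1 of 2 Ddx60 and 1 of 2 Rtp4 probe sets passed. Rtp4 read 2.76, 2.67 and 2.54 against 3.40, 4.12 and 3.96, and its call was lost where probe sets with a cross-hybridization note were left out. The other 10 that passed with all arrays were Ifit3 (1.18 ± 0.24), Trim34a (1.15 ± 0.23), Oas3, Slfn1, Ifi27l2a, Zbp1, Eif2ak2, Oas2, Trim30d and Ms4a4c, and each lost its call without at least 1 naive array.

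**Figure D3:**
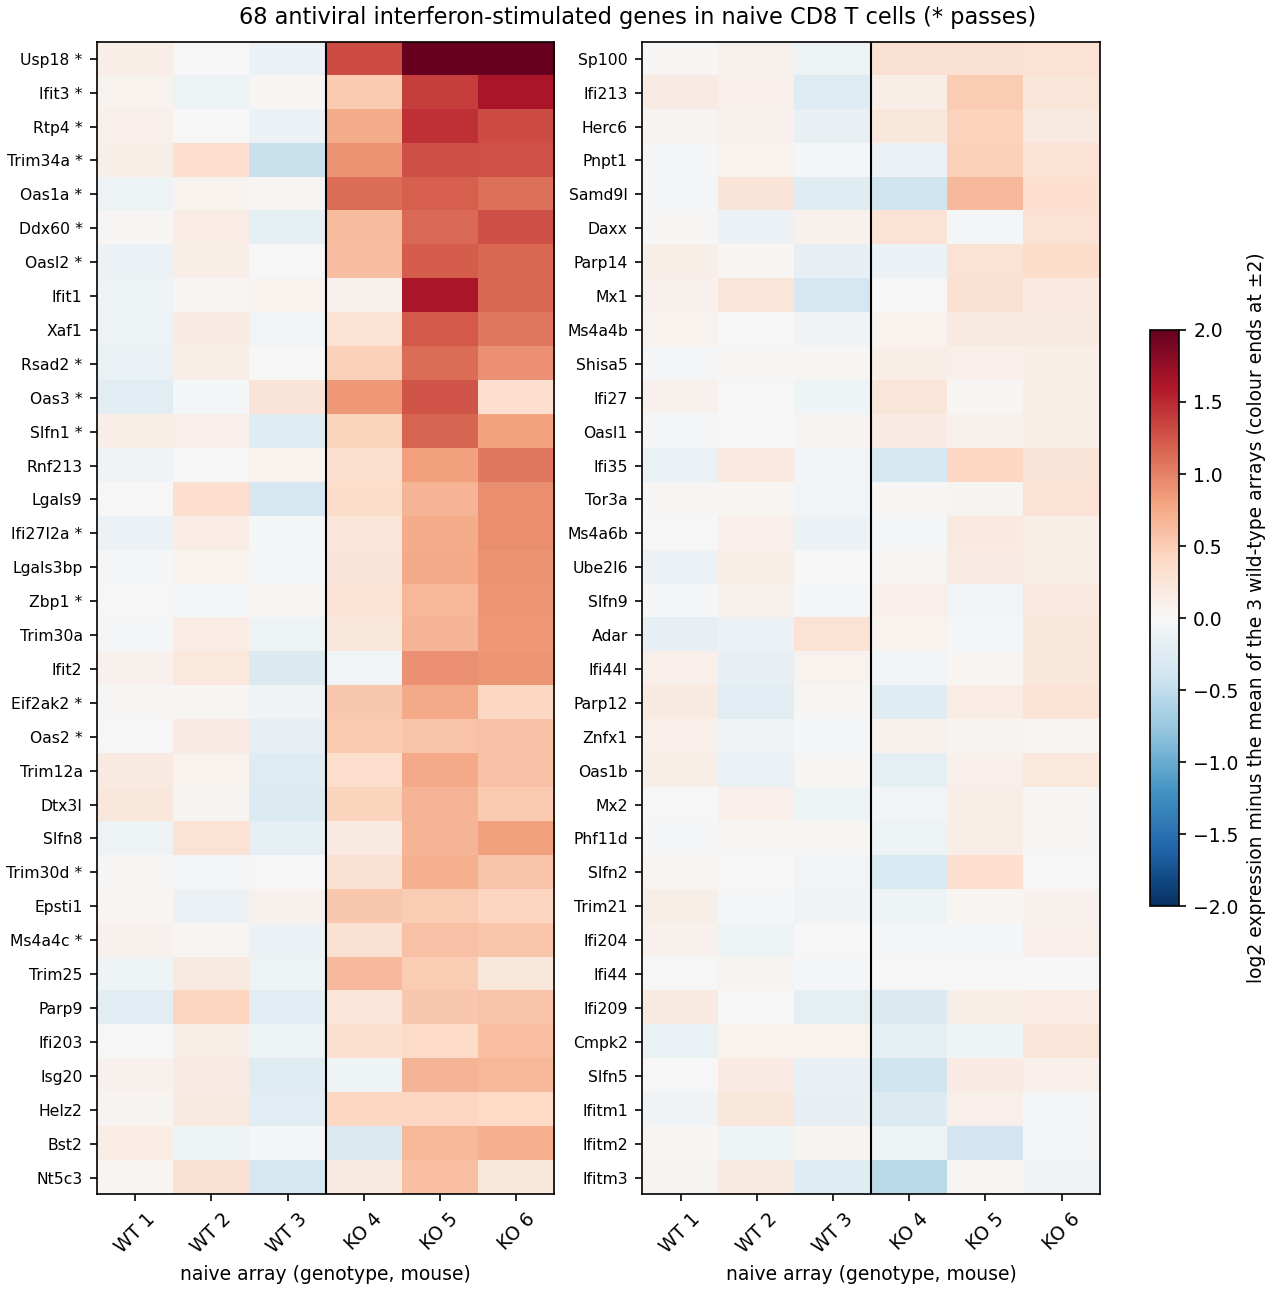
Log2 expression of 68 antiviral interferon-stimulated genes on the 6 naive arrays, each minus the mean of the 3 wild-type arrays (colour scale, ending at 2 in either direction), ordered by change. Stars mark the 16 genes that passed; knockout mouse 4 is paler than mice 5 and 6 in most rows, while Oas1a is alike in all 3.

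Genes that sense or transmit interferon passed in 5 of 35 members, against 1.09% of all genes, 4 upward and 1 downward (median 0.08). Irf7, which encodes the factor that amplifies type I interferon output, read 2.25, 2.23 and 2.22 against 2.73, 3.10 and 3.18 (0.77 ± 0.12, adjusted p = 0.00361), and the RNA sensor gene Tlr7 read 1.12, 1.20 and 1.02 against 1.84, 1.78 and 1.69 (0.65 ± 0.09, adjusted p = 0.00154). Both chains of the interferon gamma receptor passed, in opposite directions: Ifngr1, the ligand-binding chain, rose by 0.65 ± 0.11 (adjusted p = 0.00859) and Ifngr2, the signalling chain, fell from 3.01, 3.01 and 2.69 to 2.09, 2.01 and 1.86 (-0.92 ± 0.12, adjusted p = 0.000688). The cytosolic RNA sensor gene Ifih1 rose by 0.68 ± 0.14 (adjusted p = 0.0233). Ifngr1 lost its call without knockout mouse 5 (0.0512), Ifih1 without wild-type mouse 1 or 3 or knockout mouse 5 (up to 0.112), and without knockout mouse 5 the list held 2 risers. Ifih1 also did not pass with only the 6 naive arrays. With every probe set fitted on its own, 1 of 3 Tlr7 and 1 of 2 Ifngr2 probe sets passed. Of 11 interferon-inducible GTPases 0 passed in limma (median 0.10, 2 risers without knockout mouse 4), the largest change being that of Iigp1 (0.46 ± 0.13, adjusted p = 0.169). Of 23 MHC class I and antigen-processing genes 0 passed (median -0.01, 1 riser without knockout mouse 4), with H2-T24 at 0.41 ± 0.11 (adjusted p = 0.109). Ly6e, an interferon-responsive surface antigen gene, was the 1 of 10 Ly6 genes to pass, against 1.09% of all genes (median -0.01). It rose by 0.47 ± 0.09 (adjusted p = 0.0185), but did not pass with the mean of its 2 probe sets. Its call was lost without wild-type mouse 1 or 2 or knockout mouse 5 or 6, which left 0 (up to 0.0999), and the list had 2 risers without knockout mouse 4.

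The promoters of 3 of these risers are shown because they hold the core of the interferon-stimulated response element, the motif that STAT and IRF complexes bind. The sequences are RefSeq windows of assembly GRCm38.p6, from 250 bases before to 50 bases after the gene start, read 5′ to 3′ on the strand of the gene, with matches in capitals. A match is GAAA, 2 bases of any kind and GAAA again, on either strand (TTTC, 2 bases and TTTC where it lies on the other strand), and overlapping matches were allowed. The genes are the largest risers with a match among the 6 that passed without each naive array. The windows are chr5:120907476-120907775 on the minus strand for Oas1a, chr8:61927837-61928136 on the plus strand for Ddx60 and chr12:26456403-26456702 on the minus strand for Rsad2.
Oas1a: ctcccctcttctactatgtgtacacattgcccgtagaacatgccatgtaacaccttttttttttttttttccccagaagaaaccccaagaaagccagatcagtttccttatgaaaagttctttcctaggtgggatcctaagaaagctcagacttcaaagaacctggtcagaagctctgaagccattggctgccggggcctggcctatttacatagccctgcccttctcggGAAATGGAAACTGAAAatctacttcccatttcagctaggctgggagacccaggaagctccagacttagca
Ddx60: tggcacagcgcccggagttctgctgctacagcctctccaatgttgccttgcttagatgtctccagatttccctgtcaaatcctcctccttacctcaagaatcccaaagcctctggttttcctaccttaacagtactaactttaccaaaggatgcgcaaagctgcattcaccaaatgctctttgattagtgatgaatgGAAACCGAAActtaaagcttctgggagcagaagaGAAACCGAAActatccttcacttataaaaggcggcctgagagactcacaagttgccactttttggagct
Rsad2: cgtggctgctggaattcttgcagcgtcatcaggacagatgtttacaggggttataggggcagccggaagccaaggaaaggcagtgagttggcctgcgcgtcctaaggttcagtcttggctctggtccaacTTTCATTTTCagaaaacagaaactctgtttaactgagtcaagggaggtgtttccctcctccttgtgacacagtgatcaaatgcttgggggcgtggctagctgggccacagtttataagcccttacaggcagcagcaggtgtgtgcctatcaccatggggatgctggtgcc
Oas1a holds 2 overlapping matches, the first starting at position -20 from the gene start, Ddx60 holds 2 separate ones, the first at -53, and Rsad2 holds 1, on the other strand, at -120. The motif was present in 1079 of 27025 promoters in the table (3.99%), in 22 of the 55 antiviral interferon-stimulated genes that have an entry (40%), in 8 of the 11 such risers (72.7%) and in 14 of 44 members that did not pass (31.8%). Of the 16 risers 5 have no entry, Usp18 and Rtp4 among them, and the windows of Oasl2, Ms4a4c and Slfn1 held no match. A match describes the letters in this window and was not tested as a binding site.

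Genes of T-cell receptor signalling rose in 2 of 41 members, against 0.62% of all genes, with a median of 0.08. Txk, which encodes a Tec-family kinase, read 3.01, 2.95 and 2.92 against 3.40, 3.50 and 3.62 (0.55 ± 0.09, adjusted p = 0.00472), and Malt1, which encodes a paracaspase that links the receptor to NF-kappaB, rose by 0.70 ± 0.12 (adjusted p = 0.0074). Fallers were 0, or 1 without the activated arrays of knockout mouse 4 or 6 or wild-type mouse 2. Among cytokine receptors and signal inhibitors 2 of 36 rose, against 0.62% of all genes (median 0.04), Il2rb and Ifngr1. Il2rb, the beta chain of the interleukin-2 and interleukin-15 receptors, read 5.59, 5.59 and 5.61 in wild-type and 6.16, 6.14 and 6.17 in knockout mice, a small shift with little spread (0.56 ± 0.08, adjusted p = 0.00124). There were 2 fallers without knockout mouse 4 and 1 riser without knockout mouse 5.

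Genes of the naive and quiescent state passed in 4 of 33 members, against 1.09% of all genes, 2 upward and 2 downward. The median change was 0.01. Igfbp4, a gene of resting CD8 cells, read 6.78, 7.01 and 6.89 against 5.52, 4.75 and 4.61 (-1.94 ± 0.24, adjusted p = 0.000567). Dapl1, another such gene, read 6.40, 6.69 and 6.60 against 5.17, 5.08 and 5.30 (-1.38 ± 0.09, adjusted p = 6.76e-07). Both fell by more than 2-fold, while the changes of Ccr7, Il7r and Tcf7 ran from 0.08 to 0.16 and did not pass. Art2b, an ADP-ribosyltransferase gene, rose by 0.69 ± 0.12 (adjusted p = 0.00757) and Sidt1 by 0.55 ± 0.12 (adjusted p = 0.0383). Art2b lost its call without wild-type mouse 1 (0.0503), and Sidt1 without any naive array but that of knockout mouse 5 and without the activated arrays of wild-type mouse 2 or 3 (up to 0.16). The list held 1 riser and 2 fallers without wild-type mouse 2 or 3, knockout mouse 6, or the activated arrays of wild-type mouse 2 or 3. It held 0 and 2 without wild-type mouse 1 and 1 and 4 without knockout mouse 4.

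Polycomb genes and their classical targets gave no calls in naive cells. In limma 0 of 12 PRC2 subunits and accessory proteins passed (median 0.14), 0 of 20 PRC1 subunits (0.10), 0 of 29 histone and DNA methylation enzymes (0.06) and 0 of 69 developmental regulators (-0.01, as over all genes). Ezh1 read 2.30, 2.32 and 2.28 against 2.5, 2.53 and 2.28 (0.14 ± 0.11, adjusted p = 0.798). The largest changes of the other lists were those of the PRC1 gene Phc2 (0.32 ± 0.12, adjusted p = 0.376), the H3K9 methyltransferase gene Ehmt2 (-0.47 ± 0.15, adjusted p = 0.238) and Nkx2-1 (-0.28 ± 0.09, adjusted p = 0.235), none of which passed. Cdkn2a, a cell-cycle inhibitor gene silenced by PRC2 in many cell types, read 0.96, 0.91 and 1.05 against 0.89, 0.93 and 0.97, at the floor of the scale in both genotypes.

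Growth, death and handling genes also gave few or no calls. Of 46 mitosis and replication genes 0 passed (median -0.07, 1 riser without knockout mouse 4, 1 faller without knockout mouse 6), and the proliferation marker Mki67 changed by -0.55 ± 0.15 (adjusted p = 0.118). Of 30 BCL2-family and death genes 0 passed (median -0.02, 1 riser without knockout mouse 6); the pro-apoptotic gene Bcl2l11 read 4.27, 4.39 and 4.02 against 5.25, 5.06 and 4.40 (0.67 ± 0.18, adjusted p = 0.104). Of 26 early response genes, which mark handling, 0 passed (median -0.05, 1 faller without knockout mouse 4 or the activated array of knockout mouse 6), with Ier5 at -0.60 ± 0.17 (adjusted p = 0.156). Neither the 8 Gimap GTPases (median 0.01) nor the 26 ribosomal protein genes (-0.00) held a gene that passed, Gimap4 at 0.21 ± 0.09 (adjusted p = 0.471) and Rpl5 at -0.25 ± 0.13 (adjusted p = 0.585) having the largest changes.

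In the remaining lists of T-cell genes 1 member each passed, against 1.09% of all genes. Skil, an inhibitor gene of TGF-beta signals, rose by 0.60 ± 0.13 (adjusted p = 0.0298; 1 of 29, median -0.02). Ctla4, an inhibitory receptor gene, fell by 0.54 ± 0.12 on the log2 scale (adjusted p = 0.0432; 1 of 31, median -0.03). Sesn1, a p53 target gene, fell by 0.44 ± 0.10 (adjusted p = 0.0375; 1 of 25, median 0.04). Only 1 of the 4 Sesn1 probe sets passed, and with cross-hybridization-noted probe sets left out its change turned to 0.11 (adjusted p = 0.852). The calls of Ctla4 and Sesn1 were also lost with only the 6 naive arrays. Those of Skil and Sesn1 were lost with the mean of their probe sets. All 3 calls were lost without any one of several arrays. For Skil these were all 6 naive arrays (up to 0.146), for Ctla4 all 6 naive arrays and the activated arrays of wild-type mouse 1 or 3 and knockout mouse 5 (up to 0.187), and for Sesn1 the same activated arrays and all naive arrays but that of knockout mouse 6 (up to 0.12). The TGF-beta list held 2 risers without the activated array of wild-type mouse 1 and 0 without any naive array. The inhibitory receptor list held 1 riser and 1 faller without the activated array of knockout mouse 6, and 1 riser without knockout mouse 4. In the other omissions just named 0 members were left in these lists.

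Markers of other cell types moved with genotype. The mean level of 32 B-cell and MHC class II genes was 2.06 to 2.08 in wild-type mice and 1.56, 1.71 and 1.75 in knockout mice. Of the 32 genes 6 were lower and 0 higher, against 0.468% and 0.62% of all genes, and 30 changes were negative (median -0.23). The 6 were H2-Ab1 (5.80, 5.64 and 5.69 against 4.16, 4.45 and 3.92), H2-Eb1 (5.42, 5.40 and 5.38 against 3.67, 3.81 and 4.20), Cd74 (6.78, 6.93 and 6.89 against 5.31, 5.72 and 5.66), H2-DMb2, H2-Aa (-1.33) and Cd79b (-0.66). The first 4 of these passed without each naive array. Ms4a1, a B-cell gene named after its values were seen, was near the floor, at means of 0.98 for wild type and 0.76 for knockout. It did not pass in limma (adjusted p = 0.562), and a probe set at the floor cannot show whether such cells were present. Immunoglobulin and plasma-cell genes had a mean of 2.11 to 2.15 against 1.61 to 1.68. Of these 13 genes 3 were lower, against 0.468% of all genes, and 0 of 13 changes were positive (median -0.22). Jchain, the joining chain gene of secreted antibodies, read 3.11, 3.09 and 2.70 against 1.06, 1.11 and 0.89. A kappa variable gene whose probe set is marked as antisense, so that its call was lost where such probe sets were left out, fell by 2.15 ± 0.11 on the log2 scale (adjusted p = 3.31e-08), and Ighm by 0.49 ± 0.10 (adjusted p = 0.0227), a call lost without any naive array but that of wild-type mouse 3 (up to 0.111). Only 1 of the 10 Ighm probe sets passed when each was fitted on its own, and the Ighm call was also lost with the mean of its probe sets. Igkv8-30, a kappa gene in no list, read 5.54, 5.49 and 5.47 against 3.54, 3.63 and 3.77 (-1.85 ± 0.10, adjusted p = 7.13e-08).

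Phagocyte markers had a mean of 1.08 to 1.14 in wild-type and 0.85 to 0.92 in knockout mice. Of the 32 genes 4 fell and 0 rose, against 0.468% and 0.62% of all genes, and 31 changes were negative (median -0.12). The 4 were the lysozyme genes Lyz1 (-1.06 ± 0.12, adjusted p = 0.000172) and Lyz2 (-0.73 ± 0.12, adjusted p = 0.00502) and the calprotectin genes S100a9 (-0.94 ± 0.15, adjusted p = 0.0051) and S100a8 (-0.67 ± 0.11, adjusted p = 0.00505). Dendritic-cell markers had a mean of 1.85 to 1.89 against 1.58 in mouse 4 and 1.73 and 1.78 in mice 5 and 6. Of the 17 genes 2 fell, against 0.468% of all genes (median -0.13). Irf8, a transcription factor gene of dendritic and B cells, fell from 3.50, 3.60 and 3.26 to 2.20, 2.76 and 2.32 (-1.03 ± 0.15, adjusted p = 0.00291). On the activated arrays Irf8 had means of 5.99 in wild-type and 5.78 in knockout cells. Which cells gave its naive signal was not tested. The mean of the dendritic list was 1.79 to 1.85 on the activated arrays. Siglech, a marker of plasmacytoid dendritic cells, fell by 0.46 ± 0.09 on the naive arrays (adjusted p = 0.0258). Siglech lost its call without wild-type mouse 2 or 3 or knockout mouse 4 or 5 (up to 0.119), which left 1 faller, joined by 1 riser without knockout mouse 4; it also did not pass with only the 6 naive arrays. The ranges of wild-type and knockout means did not overlap in these 4 lists, nor in the NK-cell, CD4 and stromal lists given below. The part of the cells behind these 4 lists in the falls of Tyrobp, Fcer1g, Cst3, Mpeg1, S100a4, S100a6, Lgals3 and Cd24a was not tested.

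NK-cell markers went the other way as a mean, at 2.36 to 2.42 in wild-type mice and 2.47, 2.77 and 2.74 in knockout mice, but the median change of the 18 genes was 0.01. Of the 18 genes 3 rose and 2 fell, against 0.62% and 0.468% of all genes. The 3 risers were Eomes, Klra8 and Il2rb, which other lists also hold, and the 2 fallers were Tyrobp and Fcer1g; there were 4 and 1 without knockout mouse 4 and 3 and 1 without wild-type mouse 3. Ncr1 and Klrb1c, NK-cell genes also named after their values were seen, had means of 0.61 and 1.11 in wild-type cells. In knockout cells the means were 0.71 and 1.08. All lay at or below the median of all genes, and neither gene passed in limma (adjusted p = 0.803 and 0.98). At that level they cannot show whether NK cells were present. Of 19 erythroid and platelet markers 0 passed (median 0.03, means 0.94 to 0.99 on all 6 arrays), Tfrc having the largest change (0.18 ± 0.11, adjusted p = 0.703). The haemoglobin genes Hba-a1 and Hbb-b2 stand in this list through probe sets near the floor. The 3 haemoglobin probe sets that match several genes, and so enter no list, were lower in knockout mice. The one shared by Hbb-b1 and Hbb-b2 read 4.09, 4.75 and 4.25 in wild-type and 2.30, 2.41 and 2.56 in knockout mice (-1.94 ± 0.15, adjusted p = 2.6e-06 over all probe sets), and those shared by Hba-a1 and Hba-a2 fell by 1.51 ± 0.10 (adjusted p = 8.8e-07) and 1.46 ± 0.14 (adjusted p = 3.29e-05). Ctla4 was the 1 of 23 markers of CD4, regulatory and unconventional T cells to pass, against 1.09% of all genes (median -0.03, means 1.48 to 1.53 against 1.41 to 1.44). Of 23 stromal and endothelial markers Pecam1 and Thy1 fell, against 0.468% of all genes, and T cells express both (median -0.07, means 1.27 to 1.31 against 1.19 to 1.26). Thy1 fell by 0.43 ± 0.09 (adjusted p = 0.0334). Its call was lost without wild-type mouse 1 or 2, any knockout mouse, or the activated arrays of wild-type mouse 1 or 3 (up to 0.148), and with only the 6 naive arrays. The stromal list kept 1 faller without wild-type mouse 2, knockout mouse 6 or the activated arrays of wild-type mouse 1 or 3, and 0 without wild-type mouse 1 or knockout mouse 4 or 5. The CD4 list kept 0 without any array that cost Ctla4 its call.

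**Figure D4:**
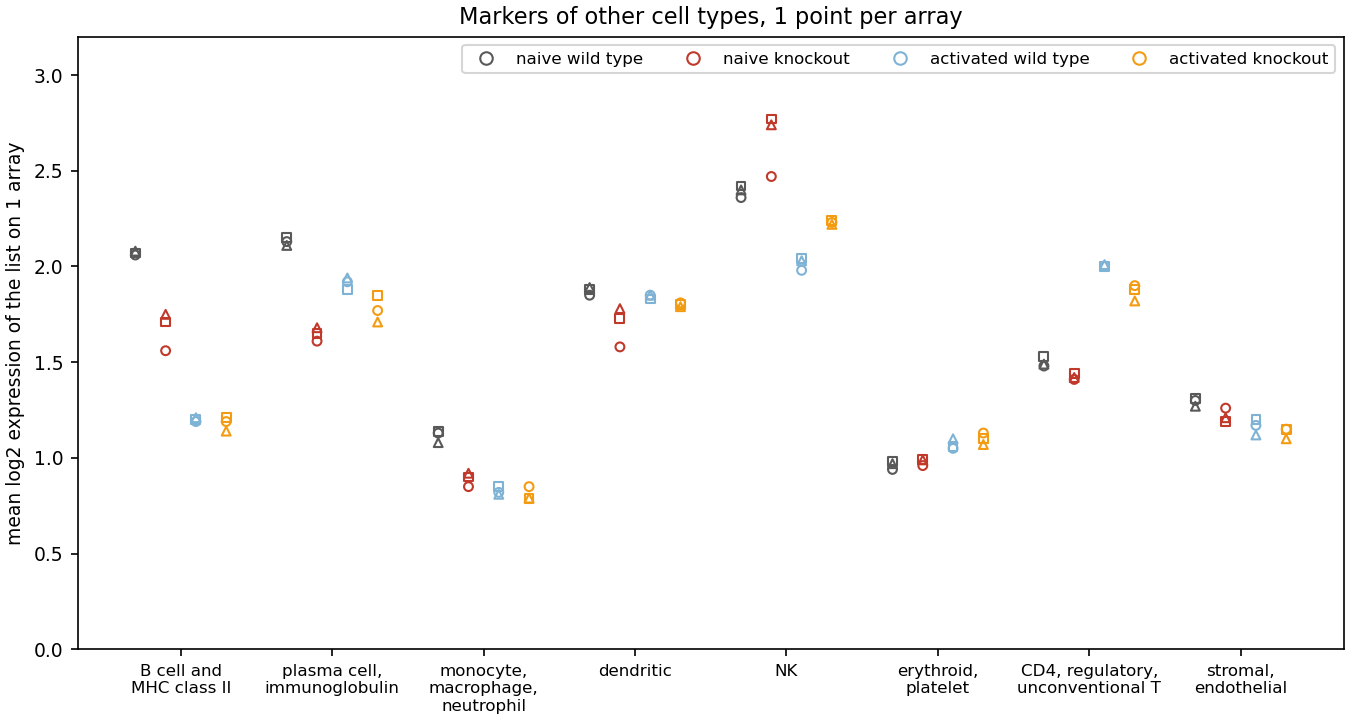
Mean log2 expression of the marker genes of 8 other cell types (vertical axis), 1 symbol per array, for the 4 groups. The naive knockout arrays (red) lie below the naive wild-type arrays (grey) for B-cell, plasma-cell, phagocyte, dendritic, CD4 and stromal markers and above them for NK-cell markers. On the activated arrays the B-cell means lie between 1.14 and 1.21 in both genotypes.

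The same contrast on the 6 activated arrays of these mice gave 277 passing genes (1.32%), 199 higher (0.949%) and 78 lower (0.372%). Of the 130 genes that rose in naive cells 23 also rose in activated cells and 0 fell, and 96 had a positive change there, with a median of 0.14. Of the 98 that fell in naive cells 7 also fell in activated cells, 10 rose, and the median change was -0.00. The difference between the knockout effects of the 2 states was tested as an interaction, which 182 genes passed (0.868%). It was passed by 27 of the naive risers and 46 of the naive fallers, but as these were chosen on naive arrays that also enter the interaction, nothing is read from these shares.

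Mela and Mid1, the latter by its antisense-marked probe set, differed in activated cells by 4.17 ± 0.19 (adjusted p = 3.19e-08) and 1.90 ± 0.29 (adjusted p = 0.00319). Rnf157 (1.20 ± 0.16, adjusted p = 0.00124), Itm2a (1.06 ± 0.18, adjusted p = 0.00715) and Arsb (0.94 ± 0.14, adjusted p = 0.00268) rose in both states, as did Eomes (1.01 ± 0.18, adjusted p = 0.00892). Dapl1 (-0.91 ± 0.09, adjusted p = 8.05e-05), Ifngr2 (-0.62, adjusted p = 0.0146) and Igkv8-30 (-0.93 ± 0.10, adjusted p = 0.000143) fell in both. Klra8, Usp18 and Tyrobp had activated changes of -0.02 ± 0.27, 0.09 ± 0.26 and 0.02 ± 0.15, which did not pass. The mean level of the 68 interferon-stimulated genes was 2.31 to 2.39 on all 6 activated arrays, below each naive array. A few genes passed in opposite directions in the 2 states: Lgals3 fell in naive cells and rose in activated cells (1.23, adjusted p = 1.42e-05), as did Ccl5 (0.68, adjusted p = 0.00334), Id2 (0.68, adjusted p = 0.0441), Cd24a (1.27, adjusted p = 0.00829) and Cd81 (0.87, adjusted p = 0.00672).

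**Figure D5:**
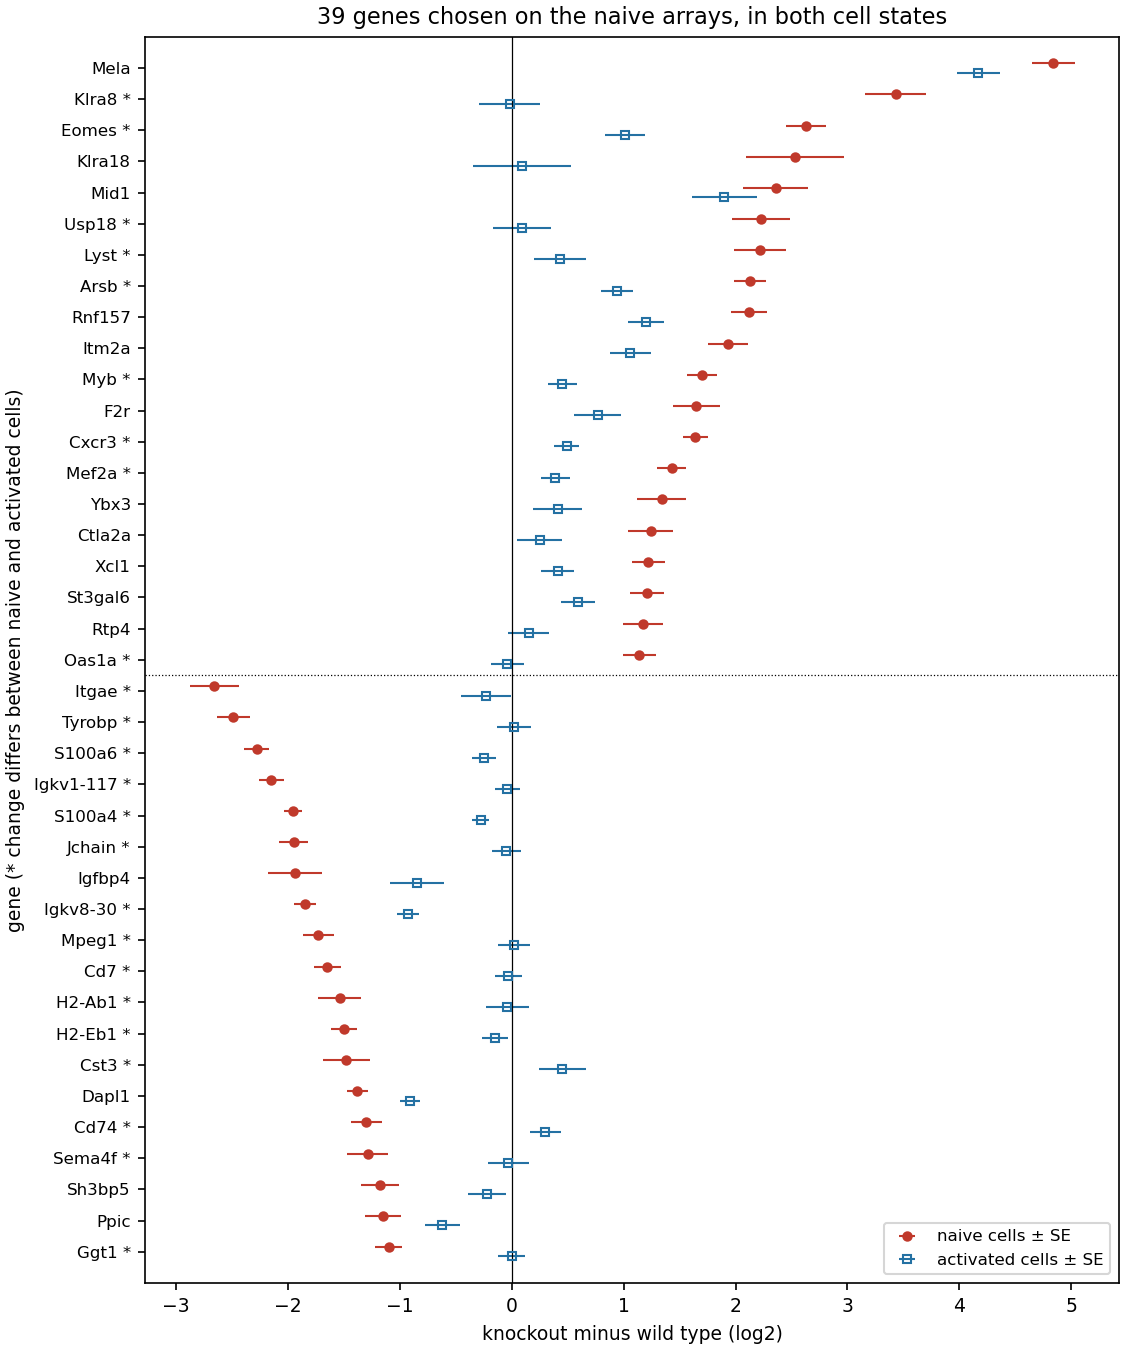
Knockout minus wild type (horizontal axis, log2 ± SE) in naive cells (red circles) and activated cells (blue squares) for the 20 leading risers and 19 of the 20 leading fallers, which were chosen on the naive arrays. Stars mark genes whose change differed between states by the interaction test; for Mela the values are 4.84 and 4.17, and for Klra8 3.43 and -0.02.

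The calls were set against the other probe sets of the same genes. With every probe set fitted on its own, 396 of 45037 passed (0.879%), and among the 860 that match several genes 31 did (3.6%). Of the 228 genes 133 have more than 1 probe set; for 104 of these all probe sets changed in the same direction, for 45 another probe set passed too, and for 0 did another pass in the opposite direction. In the authors' deposited table, which lists probe sets at an unadjusted p under 0.01 and a ratio over 1.3, the probe sets of 223 of the 228 genes were selected for the naive contrast; it was made from the same arrays and probe sets at a looser threshold, so this overlap is no separate evidence. That deposited table selects 366 probe sets as higher and 264 as lower in naive knockout cells.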

How the data were processed

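RNA of 12 CD8 T-cell samples (about 200 ng each) was amplified with a Nugen Ovation Pico kit and measured on Affymetrix perfect-match mouse arrays, per the labels. The authors deposited log2 values made by RMA on perfect-match probes, per the file headers and with no version stated there. The authors' workbook also holds a linear ratio of group means and unadjusted p-values from a 2-way analysis of variance. Their naive p column is recorded under the unit other, because counts stand above its header, per the file headers. Workbook and series log2 values differed by at most 5e-09. Precision is limited by having 3 arrays per group, and no detection calls entered.

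After leaving out 104 control probe sets, 38544 belong to 1 gene, 860 to several and 5633 to none. Each of 20962 genes was represented by its brightest probe set (mean over 12 arrays). Symbols of 18394 genes were updated by gene identifier through RefSeq (GRCm38.p6), and 2568 kept the deposited symbol. The 12 arrays were fitted with limma 3.58.1 (lmFit, eBayes) in R 4.3.3, with 1 mean per group. The naive knockout effect, the activated one and their interaction were tested on both sides and adjusted by Benjamini-Hochberg. The fit was tested on simulated data. Python 3.11.15, pandas 2.3.3, numpy 2.4.6 and matplotlib 3.10.9 made tables and plots.

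Members and the 36 gene lists were chosen with earlier results of these data known. Genes are named from a fixed panel, the 20 largest rises and falls whose groups do not overlap and whose call holds without each naive array, and per list up to 6 such members, all if 5 or fewer passed in a direction, or the largest change if none did. Unnamed transcripts and pseudogenes were left out of the 20 largest rises and falls. B-cell, NK-cell, granzyme, annexin, S100 and interferon genes outside this rule were added after their values were seen. Results for some genes so chosen are omitted.

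The mice are separate animals, and naive knockout and wild-type arrays share no mouse. Naive and activated arrays share mice 1 to 6; r between their deviations was 0.04, -0.10, 0.05, 0.13, -0.05 and 0.07 for mice 1 to 6, across genes, which are not independent replicates. The mouse as a random block changed the counts little, as given in the closing section.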

Additional observations from a re-analysis of the deposited data

Results flagged for a closer look

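The knockout effect differed between naive and activated cells, by the interaction test in limma, for the genes below. Each value is the activated change minus the naive change on the log2 scale, so a gene that rose in naive cells tends to have a negative value. Most of the genes were named for their naive effect and the naive arrays enter the test, so the test is not independent of how they were chosen. Causes were not tested.

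Among genes higher in naive knockout cells, the values were Klra8 (-3.46), Usp18 (-2.14), Lyst (-1.79), Eomes (-1.62), Myb (-1.25), Arsb (-1.18), Cxcr3 (-1.15) and Mef2a (-1.04) for leading risers, and Oas1a (-1.18), Irf7 (-1.06), Oasl2 (-1.01), Rsad2 (-0.94) and Tlr7 (-0.65) for interferon genes. Smaller differences were found for Il2rb (-0.82), Sh2d1a (-0.82), Txk (-0.58) and Itgal (-0.56).

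Among genes lower in naive knockout cells, they were Tyrobp (2.52), Itgae (2.43), S100a6 (2.03), S100a4 (1.69), Cd7 (1.62), Sema4f (1.26), Ggt1 (1.11), Itga4 (1.20), Cxcr6 (0.62), Gzmb (1.04), Lgals1 (1.07) and Sesn1 (0.68). Genes taken here as markers of other cell types included a kappa variable gene with an antisense-marked probe set (2.11), Jchain (1.89), Igkv8-30 (0.92) and Mpeg1 (1.76). The others were Cd74 (1.60), H2-Ab1 (1.49), H2-Eb1 (1.36), H2-DMb2 (0.86), S100a9 (1.03) and Lyz1 (0.77). Cst3, which read 3.98 to 5.00 on the activated arrays, had 1.93. Genes that fell in naive and rose in activated cells had Cd24a (2.37), Lgals3 (2.07), Ccl5 (1.67), Id2 (1.63) and Cd81 (1.54).

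A further set did not pass in naive cells and was lower in activated knockout cells: Ezh2 (-1.82), Iigp1 (-1.31) and Cd8a (-0.67).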

How the results depend on the processing

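The total of 228 genes fell to 128 (83 higher, 45 lower) and the interaction's 182 to 95 when probe sets with a cross-hybridization note were left out, a setting that tests fewer genes. Fitting every probe set gave 205 higher, and asking for at least 1.5-fold left 64 lower. Leaving out 1 array gave 139 to 290 genes in all, 68 to 177 higher, 64 to 123 lower and 122 to 234 for the interaction. With the mouse as a replicate block 230 genes passed, 132 of them higher, and 197 for the interaction, at a correlation within mice of 0.0335, and no named gene lost its call. A block of array numbers, added after seeing the data, gave 239 genes, and the 6 naive arrays alone gave 181, 159 of them shared, with 13 named calls lost. Shifting arrays to one median moved the share of calls that are higher from 57% to 61.8% and the median of all genes from -0.01 to 0.02.

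Of 87 named genes that passed, 65 kept their call without each array, 61 under every other setting that tested them and 56 under all such settings. With cross-hybridization-noted probe sets left out only 46 of the 87 were tested. The rest had no probe set left, so their calls were not checked there, those of Klra8, Tyrobp, S100a4, Cxcr3, Usp18 and Cd7 among them. Of the 24 named genes that did not pass 5 gained a call somewhere. Sesn1 reversed to 0.11 (adjusted p = 0.852) when cross-hybridization-noted probe sets were left out, which switches its probe set. That setting also ended the calls of St3gal6, Rtp4, Tlr7, Malt1, Sidt1 and Ighm. Probe sets near the floor limit what falls can be measured.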

Other observations

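Probe sets that match several genes stand for no single gene and 22 of them were lower and 9 higher in naive knockout cells, in a fit of all probe sets. The lower ones were led by immunoglobulin genes, 14 probe sets with changes from -3.70 to -0.78. One heavy-chain probe set read 6.59, 6.66 and 6.80 in wild-type mice and 3.56, 2.72 and 2.68 in knockout mice. The probe set shared by the apoptosis inhibitors Bcl2a1a, Bcl2a1b and Bcl2a1d read 4.69, 4.88 and 4.69 against 2.72, 4.06 and 3.81, lowest in mouse 4 (-1.23 ± 0.23, adjusted p = 0.0177).

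Among the higher ones was the probe set shared by Klra3 and Klra9, genes of the Ly49 family, at 1.60, 1.55 and 1.54 in wild-type and 4.58, 5.81 and 5.67 in knockout mice (3.79 ± 0.31, adjusted p = 6.63e-06). The one shared by Ctla2a and Ctla2b rose by 1.55 ± 0.25 (adjusted p = 0.00564). Ly6c1 and Ly6c2, which encode the memory-associated antigen Ly6C, share a probe set that read 7.19, 7.39 and 7.23 against 8.03, 8.18 and 8.11 (0.84 ± 0.09, adjusted p = 0.000164). Probe sets that include the interferon-stimulated genes Isg15 and Ifi203 rose by 0.92 ± 0.15 (adjusted p = 0.00452) and 1.07 ± 0.13 (adjusted p = 0.000533).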
